A study of Homo sapiens with 4 samples.

Results

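The GADD45 and p53 growth-arrest genes described here are 9 protein-coding genes, MDM2, CDKN1A, GADD45A, GADD45B, GADD45G, BTG1, BTG2, SESN1 and TP53INP1. They were chosen by name, each matched 1 row by its Ensembl ID among the 61541 genes of the deposited table, and all 9 were among the 16863 genes that passed the filter on low counts. RNA was sequenced from MHCC97H, an established human hepatocellular carcinoma (HCC) cell line, in 2 libraries of control cells (shCon) and 2 libraries of UBXN1-knockdown cells (shUBXN1). UBXN1 encodes a UBX-domain protein that binds ubiquitin and the ATPase VCP. The cells of both groups carried a short hairpin RNA (shRNA), delivered by lentivirus according to the methods, which call the control shRFP. Of the 3 human UBXN1 shRNAs that the study lists, the one in these cells is not given in the sources used here, nor is whether the libraries of a group came from separate cultures, so p-values measure only the spread between these libraries, which may be technical. The question was which of the arrest genes differed between UBXN1-knockdown and control cells.

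p53 is a transcription factor that is stabilized by DNA damage and other stress and that switches on genes which halt the cell cycle, repair DNA or start apoptosis. MDM2 is both its target and its inhibitor, since the MDM2 ligase marks p53 for degradation, and p21, the product of CDKN1A, blocks cyclin-dependent kinases. The GADD45 proteins are small stress sensors that bind the kinase MAP3K4, PCNA and the CDK1-cyclin B1 complex. BTG1 and BTG2 slow growth by bringing the CCR4-NOT deadenylase to mRNAs, SESN1 restrains mTORC1 through the GATOR complexes, and TP53INP1 takes part in p53 signaling and in autophagy. Several of these genes also answer to signals other than p53, such as NF-κB for GADD45B and FOXO factors for BTG1.

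The p53-type sites near the members are shown because p53 is the regulator that most of these genes are known for. A p53 site has 2 decamers, each made of purines, a C, 2 bases that are A or T, a G and pyrimidines. With no gap between the decamers, the C and G of each decamer fixed and at most 2 mismatches elsewhere, such a site lay within 5 kb of the start of the canonical transcript in 5 of the 9 members, against 7.65% of 19954 protein-coding genes. With at most 1 mismatch GADD45A was the member with a site, against 1.07% of genes. The members were listed from general knowledge of p53 targets, so a larger share than among all genes is no test of p53 control. A match describes letters, not binding. The consensus reads the same on both strands, so each match covers both. The sites are given 5′ to 3′ on GRCh38 on the plus strand, which is the strand of these genes, with the fixed C and G of each decamer in capitals, for the members whose site lies in an intron or upstream.
GADD45A: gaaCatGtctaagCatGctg
CDKN1A: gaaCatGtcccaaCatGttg
MDM2: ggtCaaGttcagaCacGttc
BTG2: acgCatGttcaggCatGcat
The GADD45A site lies at chr1:67686775-67686794, in intron 3 of 4 exons, and has 1 mismatch. The CDKN1A site lies at chr6:36676449-36676468, 2256 bases upstream of the canonical start, and spans the first base of the annotated gene. The MDM2 site lies at chr12:68808923-68808942, in intron 1. The BTG2 site lies at chr1:203303642-203303661, 1868 bases upstream. These 3 sites have 2 mismatches each, as does the fifth, in exon 4 of GADD45B. No site was found for GADD45G, BTG1, SESN1 or TP53INP1 in these windows. In the RefSeq promoters (GRCh38.p14, 250 bases before to 50 after the start), which held 7 of the 9 members, the letters TATAAA occurred on either strand in those of BTG1 and GADD45B, against 12.0% of 27305 promoters, and GTAAACA, which FOXO factors bind, in that of BTG1, against 3.41%. The cAMP response element TGACGTCA (1.98% of promoters) and the p53 half-site decamer (6.54%) occurred in none of the 7, and none of these motifs contains another.

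The libraries held 23373700 to 27380508 expected counts. The mitochondrial share of counts was higher in the knockdown (7.43% and 8.27%) than in the control libraries (5.28% and 5.59%), and its part in the results was not tested. Of 9 hepatocyte and HCC markers, 8 reached 1 CPM (read counts scaled to library size, after TMM) in at least 1 library, led by KRT8, and their summed level was 4360 to 4520 CPM in shCon and 3450 to 4040 CPM in shUBXN1. Most of this sum was the keratins KRT8 and KRT18, so it says little about the other markers. KRT8 was lower in shUBXN1 (3350 and 3470 CPM in shCon, 2330 and 2710 CPM in shUBXN1). KRT18 was higher (895 and 949 CPM in shCon, 1040 and 1250 CPM in shUBXN1). HNF4A stood at 46.9 to 61.8 CPM, whereas ALB was low, at 18.0 and 17.2 CPM in shCon and 4.20 and 4.78 CPM in shUBXN1. Of the markers of other cell types, 2 of 5 for fibroblasts (COL1A1 and LUM), 1 of 4 for leukocytes (CD68) and 2 of 3 for endothelium (PECAM1 and VWF) reached 1 CPM, and CD3E was at 0. The summed levels in shCon and shUBXN1 were 33.1 to 33.2 and 17.1 to 19.7 CPM for fibroblasts, 82.7 to 88.6 and 70.7 to 72.9 CPM for leukocytes, and 33.8 to 34.1 and 42.9 to 44.4 CPM for endothelium. Their part in the results was not tested. UBXN1 was at 67.1 and 77.3 CPM in shCon and 16.8 and 18.5 CPM in shUBXN1, 24.5% of the control level.

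Of the 9 members, 6 rose (GADD45A, GADD45B, BTG1, BTG2, TP53INP1 and CDKN1A), MDM2 fell, and GADD45G and SESN1 did not pass the test. The 6 that rose were 1.39-fold (CDKN1A) to 3.94-fold (TP53INP1) higher in shUBXN1. A gene was called at a Benjamini-Hochberg adjusted p under 0.05 in edgeR's quasi-likelihood test over all genes tested. That test moderates each gene's variance with a trend over all genes, so p-values and intervals do not rest on that gene's libraries alone. So many genes differed between these cells that 56.2% of all genes tested passed, 28.0% higher and 28.2% lower. By the thresholds of the study's methods, 2-fold with p under 0.05 before adjustment, 4 members were higher (GADD45A, GADD45B, BTG2 and TP53INP1) and 0 lower, against 11.8% of all genes higher, 6.09% lower and 17.9% in either direction. The median log2 fold change was 0.95 for the members and 0.016 for all genes. In CPM, the shUBXN1 libraries lay above the shCon libraries for 8 members and below them for MDM2, but this held for 39.4% and 38.6% of all genes (78.0% in either direction), so lack of overlap alone says little here. In bulk RNA, a change in RNA per cell cannot be told apart from a change in the number of cells that express a gene.

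**Figure D1:**
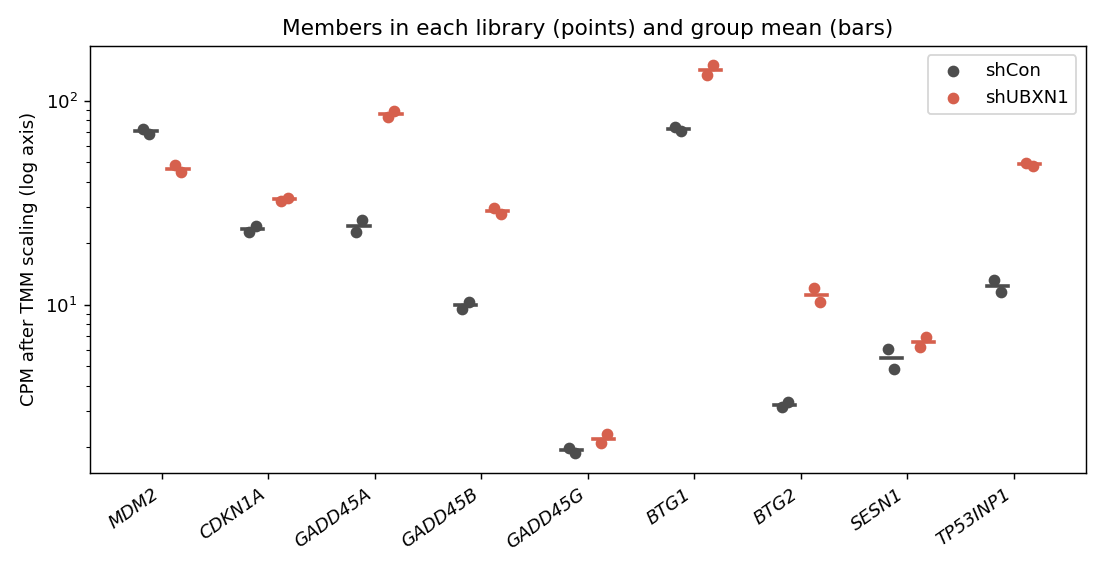
Level of each member (vertical axis, CPM after TMM scaling, log axis) in the 2 shCon and the 2 shUBXN1 libraries, with points for libraries and bars for group means. GADD45A, GADD45B, BTG2 and TP53INP1 stand farthest above their controls, MDM2 lies below, and GADD45G and SESN1 lie close to theirs.

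GADD45A (ENSG00000116717, chromosome 1, 67685201 to 67688334, plus strand, GRCh38 like all positions here) was at 22.7 and 26.0 CPM in shCon and 83.3 and 88.8 CPM in shUBXN1. Both knockdown libraries were more than 3 times as high as either control. The difference was 1.82 on the log2 scale (standard error 0.0874, 3.54-fold, adjusted p = 1.08e-09, edgeR), higher than that of 95.1% of all genes tested. GADD45B (ENSG00000099860, chromosome 19, 2476122 to 2478259, plus strand), the family member best known as an NF-κB target, was at 9.53 and 10.3 CPM in shCon and at 29.9 and 27.9 CPM in shUBXN1. The groups were far apart, by 1.55 on the log2 scale (standard error 0.110, 2.92-fold, adjusted p = 4.38e-08, edgeR). GADD45G (ENSG00000130222, chromosome 9, 89605012 to 89606555, plus strand) was at 1.99 and 1.87 CPM in shCon and at 2.10 and 2.31 CPM in shUBXN1. These values rest on 44 to 54 counts per library. The log2 fold change of GADD45G was 0.19 with a 95% interval from -0.48 to 0.86 (adjusted p = 0.634, edgeR). A rise of the size seen in GADD45A thus lay outside the interval, whereas a rise of up to 0.86 did not. No other annotated gene shares exon bases with the 3 GADD45 genes. The ratio of GADD45A to GADD45G, taken per length within a library so that library scaling cancels, was 9.02 and 10.9 in shCon and 31.3 and 30.3 in shUBXN1. The ratio of GADD45A to GADD45B moved less, from 1.35 and 1.43 to 1.57 and 1.80. These ratios use the deposited gene lengths, and with canonical transcript lengths that of GADD45A to GADD45B was 2.42 and 2.56 in shCon and 2.82 and 3.23 in shUBXN1, a shift of level that leaves the log2 difference between groups, 0.28, as it was. With 2 libraries against 2, a two-sided exact permutation test cannot go below p = 0.333, which each of the 5 ratios computed gave.

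TP53INP1 and BTG2 rose about as much as GADD45A. TP53INP1 (ENSG00000164938, chromosome 8, 94925972 to 94949378, minus strand) was at 13.2 and 11.5 CPM in shCon and at 49.6 and 47.9 CPM in shUBXN1. Its log2 fold change of 1.98 (standard error 0.0995, 3.94-fold, adjusted p = 1.72e-09, edgeR) was above that of every other member. BTG2 (ENSG00000159388, chromosome 1, 203305491 to 203309602, plus strand) was much scarcer, at 3.15 and 3.32 CPM in shCon and 12.1 and 10.3 CPM in shUBXN1. These values rest on 84 and 78 counts in the controls and on 300 and 241 after knockdown. The log2 fold change of BTG2 was 1.79 (standard error 0.178, 3.46-fold, adjusted p = 1.09e-06, edgeR). BTG1 (ENSG00000133639, chromosome 12, 92140278 to 92145846, minus strand), its close relative, was at 74.3 and 71.3 CPM in shCon and at 133 and 149 CPM in shUBXN1. The rise of BTG1 was smaller, with a log2 fold change of 0.95 (standard error 0.0791, 1.93-fold, adjusted p = 1.86e-07, edgeR). Per length, BTG1 exceeded BTG2 by a ratio of 6.49 and 5.92 in shCon and of 3.02 and 3.99 in shUBXN1, or of 13.9 and 12.7 against 6.46 and 8.53 with canonical lengths. LINC01619 on the same strand shares 10.4% of the exon bases of BTG1, and BTG1-DT covers 5.6% on the other strand, so part of the BTG1 count is uncertain.

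The genes closest to the p53 response core, CDKN1A and MDM2, moved less, and in opposite directions. CDKN1A (ENSG00000124762, chromosome 6, 36676460 to 36687337, plus strand) was at 22.8 and 24.4 CPM in shCon and at 32.2 and 33.4 CPM in shUBXN1. The rise was 1.39-fold (log2 fold change 0.48, standard error 0.0917, adjusted p = 5.07e-04, edgeR), and 73.8% of all genes had a lower log2 fold change. MDM2 (ENSG00000135679, chromosome 12, 68808177 to 68845544, plus strand) was at 72.8 and 68.7 CPM in shCon and at 48.2 and 44.6 CPM in shUBXN1. It was thus 1.53-fold lower (log2 fold change -0.61, standard error 0.0789, adjusted p = 1.45e-05, edgeR). The ratio of CDKN1A to MDM2 within a library was lower in the controls (0.261 and 0.295) than after knockdown (0.557 and 0.623). With canonical lengths, which are much longer for MDM2, it was 1.11 and 1.26 against 2.37 and 2.65, so whether CDKN1A lay below or above MDM2 depends on the length used. Genes on the opposite strand, among them CPM, cover 11.1% of the MDM2 exon bases, and a same-strand gene shares 5.3%. Antisense overlap was smaller, at 4.9% of exon bases for CDKN1A (with DINOL), 5.0% for SESN1 and 4.0% for TP53INP1 (with NDUFAF6). SESN1 (ENSG00000080546, chromosome 6, 108984309 to 109094846, minus strand) was at 6.08 and 4.85 CPM in shCon and at 6.22 and 6.92 CPM in shUBXN1. The first control of SESN1 lay closer to both knockdown libraries than to the second control, which was the lowest library. The log2 fold change was 0.26 with a 95% interval from -0.15 to 0.67 (adjusted p = 0.260, edgeR).

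The order of the members by level changed with the knockdown. Per kilobase of the gene length that the authors deposited, the order in shCon was MDM2 (40.5 CPM per kb), GADD45A (18.0), BTG1 (15.7), GADD45B (13.0), CDKN1A (11.2), BTG2 (2.54), TP53INP1 (2.20), GADD45G (1.81) and SESN1 (0.965 CPM per kb), and no neighbours overlapped between libraries. Under shUBXN1 it was GADD45A (63.6 CPM per kb), GADD45B (37.8), BTG1 (30.4), MDM2 (26.5), CDKN1A (15.6), BTG2 (8.79), TP53INP1 (8.70), GADD45G (2.07) and SESN1 (1.16 CPM per kb), and the libraries of BTG2 and TP53INP1 overlapped. The place of MDM2 rests on its length. The deposited length is 1748 bases, against 7490 for the canonical transcript of GENCODE v44, and with the latter MDM2 was at 9.45 CPM per kb in shCon and 6.19 in shUBXN1. GADD45A, BTG1 and CDKN1A then stood above it in shCon, and also GADD45B and TP53INP1 in shUBXN1. GADD45B and BTG2, with 765 and 1275 deposited against 1371 and 2729 canonical bases, were then at 7.23 and 1.19 CPM per kb in shCon and at 21.1 and 4.11 in shUBXN1. GADD45A was then first in both groups.

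Paralogs of the members were compared because related genes may carry the same function. Of the 10 listed, 9 were tested, 6 rose and 1 fell (77.8% called, median log2 fold change 0.69), and BTG4 had 0 counts in all libraries. Over all genes tested, 56.2% were called, 28.0% higher, and the median was 0.016. MDM4, the p53 inhibitor related to MDM2, moved against MDM2, with 27.1 and 24.3 CPM in shCon and 43.4 and 40.3 CPM in shUBXN1. It was higher by 0.70 on the log2 scale (standard error 0.0915, adjusted p = 1.53e-05, edgeR). The ratio of MDM2 to MDM4 per length was 15.5 and 16.3 in shCon and 6.38 and 6.35 in shUBXN1, or 3.61 and 3.79 against 1.49 and 1.48 with the canonical length of MDM2. The sestrin paralogs also split. SESN2, which is induced by p53 and by ATF4, fell from 17.2 ± 0.636 to 11.1 ± 0.329 CPM (SD, n = 2), with a log2 fold change of -0.63. SESN3, known as a FOXO target, was near the floor in shCon, with 15 and 4 counts, and at 115 and 93 counts in shUBXN1. The log2 fold change of SESN3 was 3.50 (adjusted p = 8.02e-06, edgeR), and its size depended on the controls, with 4.62 without shCon replicate 1 and 2.93 without shCon replicate 2. TP53INP2, an autophagy protein related to TP53INP1, rose from 14.1 ± 0.0960 to 30.4 ± 2.27 CPM (SD, n = 2), with a log2 fold change of 1.11. TOB2 rose as well (log2 fold change 0.85), whereas TOB1 (0.07) and BTG3 (-0.08) did not pass the test. Among the other CDK inhibitors of the p21 family, CDKN1C (p57) rose with a log2 fold change of 0.69. The call for CDKN1B (p27), with 0.25 and an adjusted p of 0.0144, was lost in DESeq2 (adjusted p = 0.0503) and without either shCon library (adjusted p = 0.112 and 0.0856, edgeR).

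**Figure D2:**
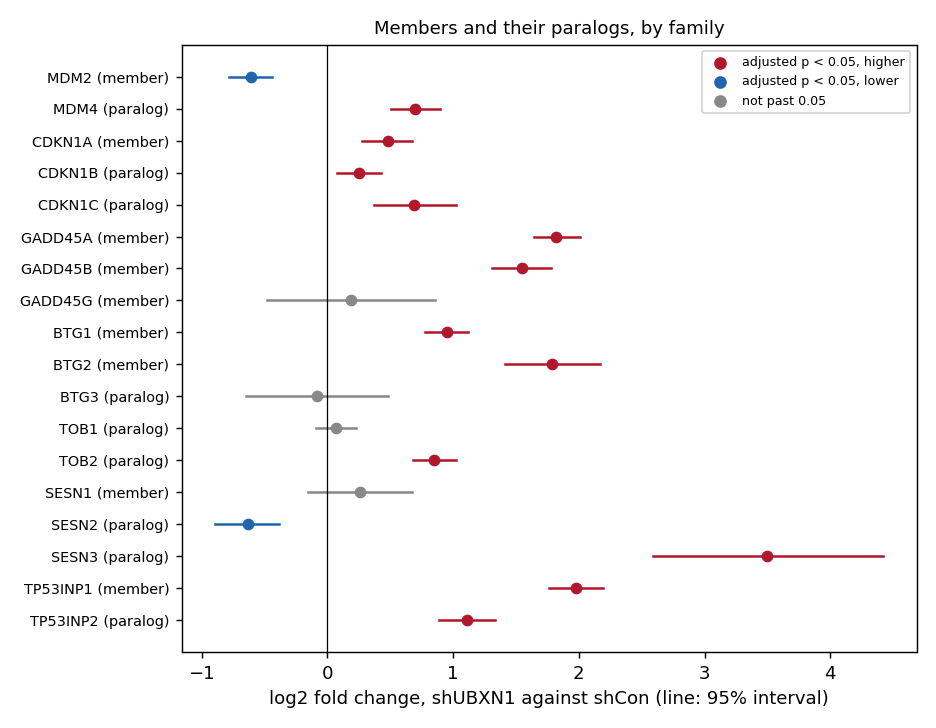
Log2 fold change (horizontal axis, shUBXN1 against shCon) of the members and of their tested paralogs, grouped by family, with points for the edgeR estimate and lines for its 95% interval. MDM2 and MDM4 lie on opposite sides of 0, as do SESN2 and SESN3, whereas the interval of GADD45G crosses 0.

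Other p53 target genes did not move to one side. Of 45 listed genes 40 were tested, 14 rose and 11 fell (62.5% called, against 56.2% of all genes tested). Their median log2 fold change was 0.01, against 0.016 for all genes tested. EDA2R and SPATA18 had 0 counts in all libraries, and TRIM22, TNFRSF10C and TP53AIP1 were too low to be tested. The largest rises were those of LIF (log2 fold change 1.62), which encodes a cytokine, FAS (1.56), a death receptor, PLK2 (1.06), a stress-responsive polo-like kinase, and PMAIP1 (1.02), which encodes the BH3-only protein NOXA. LIF rose from 25.7 ± 2.83 to 78.5 ± 0.440 CPM (SD, n = 2), and FAS from 1.44 ± 0.185 to 4.25 ± 0.0973 CPM (SD, n = 2). The largest falls were those of AEN (-1.35), a nuclease that enhances apoptosis, CDIP1 (-0.86), BAX (-0.65), the pore-forming apoptosis effector, and SESN2 (-0.63). AEN fell from 69.5 ± 0.936 to 27.4 ± 2.92 CPM (SD, n = 2), and BAX from 74.5 ± 8.75 to 47.3 ± 4.65 CPM (SD, n = 2). In RNA, genes of apoptosis thus stood on both sides, with FAS and PMAIP1 higher and AEN and BAX lower. For BAX protein the study reports the opposite direction, a rise by western blot in UBXN1-knockdown HCC cells, MHCC97H among them. Without shCon replicate 1 the list had 9 genes higher and 7 lower, without shCon replicate 2 it had 8 and 6, and without shUBXN1 replicates 1 and 2 in turn it had 16 and 8, and 11 and 11. Members and this list were written from general knowledge of p53 targets, with earlier results of these data known.

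**Figure D3:**
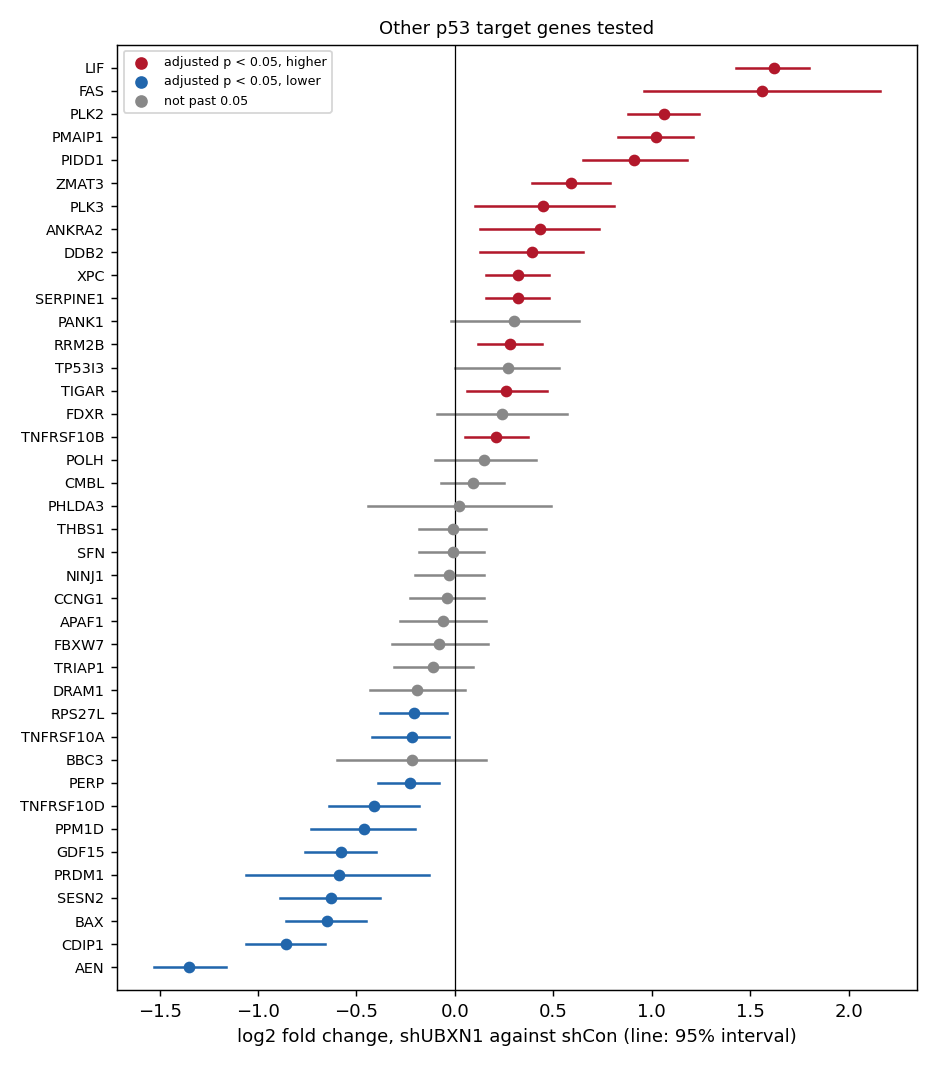
Log2 fold change (horizontal axis, shUBXN1 against shCon) of the 40 other p53 target genes tested, in order, with points for the edgeR estimate and lines for its 95% interval. The values run from 1.62 for LIF to -1.35 for AEN and the calls fall on both sides of 0.

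Among 16 regulators and relatives of p53, 4 rose and 9 fell (81.2% called, median log2 fold change -0.29). The share called over all genes tested was 56.2%, with 28.0% higher and 28.2% lower. USP7, a deubiquitinase that acts on MDM2, fell with a log2 fold change of -0.60. The 4 genes that rose, named here after their values were seen, were MDM4, TP53BP1 (0.57), which binds damaged chromatin, the damage kinase ATM (0.35) and TP73, whose counts were 1 and 4.11 in the controls, too few for a fold change to be given, and 14 and 23.44 after knockdown. ATM was at 82.3 and 76.7 CPM in shCon and at 117 and 85.9 CPM in shUBXN1, so its knockdown libraries differed widely.

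The partners through which GADD45 and p21 act were mostly lower. Of 12 genes of the GADD45 partners and the p38/JNK arm, 7 fell and 2 rose (75.0% called, median log2 fold change -0.47). Over all genes tested, 56.2% were called, 28.2% lower, and the median was 0.016. MAP2K3, a kinase that activates p38, fell from 67.9 ± 3.44 to 19.4 ± 1.53 CPM (SD, n = 2), or by -1.81 on the log2 scale (standard error 0.0895, adjusted p = 1.48e-09, edgeR). CCNB1, the cyclin B1 gene, fell from 154 ± 6.18 to 63.4 ± 3.69 CPM (SD, n = 2), a log2 fold change of -1.28. The 2 that rose, chosen after their values were seen, were MAP3K4 (0.43), the kinase that GADD45 proteins activate, and MAPK8 (0.44), which encodes JNK1. MAPK9 (-0.37), which encodes JNK2, fell, so the JNK genes of the list split. The other falls were those of MAP2K6 (-1.48), CDK1 (-1.18), GADD45GIP1 (-0.57) and PCNA. MAP2K4, MAP2K7 and MAPK14 did not pass the test. Of 9 p21 partners tested (CCND2 had at most 1 count per library), 6 fell and CCNE1 (0.51) rose (77.8% called, median -0.32). CCNE1 was named after its value was seen, and CCNE2 (-0.13) and CDK6 (0.02) did not pass the test. CCNA2, the cyclin A2 gene, fell with a log2 fold change of -1.07, and PCNA, the sliding clamp that binds both p21 and GADD45 proteins, fell from 259 ± 1.85 to 152 ± 12.7 CPM (SD, n = 2), with -0.77. PCNA is in both lists and counts among the falls of each.

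Partners of the BTG and sestrin proteins moved less evenly. The shares called below stand beside 56.2% of all genes tested, 28.0% higher and 28.2% lower. Of 12 genes, the CCR4-NOT subunits and PRMT1, 6 fell and 2 rose (66.7% called, median log2 fold change -0.17), with the subunit gene CNOT10 (-0.80) and the deadenylase gene CNOT6 (-0.52) the most clearly lower. Among 9 GATOR genes and partners of sestrins 4 rose and 3 fell (77.8% called, median -0.07), and the GATOR1 subunit genes DEPDC5 (0.87) and NPRL3 (-0.77) moved in opposite directions. Of 12 other transcription factors known to act on these genes, 2 rose and 6 fell (66.7% called, median -0.11). EGR1, an immediate early factor, fell from 43.0 ± 8.10 to 5.75 ± 1.11 CPM (SD, n = 2), with a log2 fold change of -2.90, and BRCA1 fell with -0.98. The 2 that rose, named after their values were seen, were FOXO3 (0.29) and RELA (0.31), which encodes the p65 subunit of NF-κB. The NF-κB gene NFKB1 (-0.21) fell, as did ATF4 (-0.42), MYC (-1.04) and KLF4 (-0.44). FOXO1 (0.33) and FOXO4 (0.17) did not pass the test, nor did DDIT3 and SP1. Neither the NF-κB nor the FOXO genes of the list thus rose as a set.

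**Figure D4:**
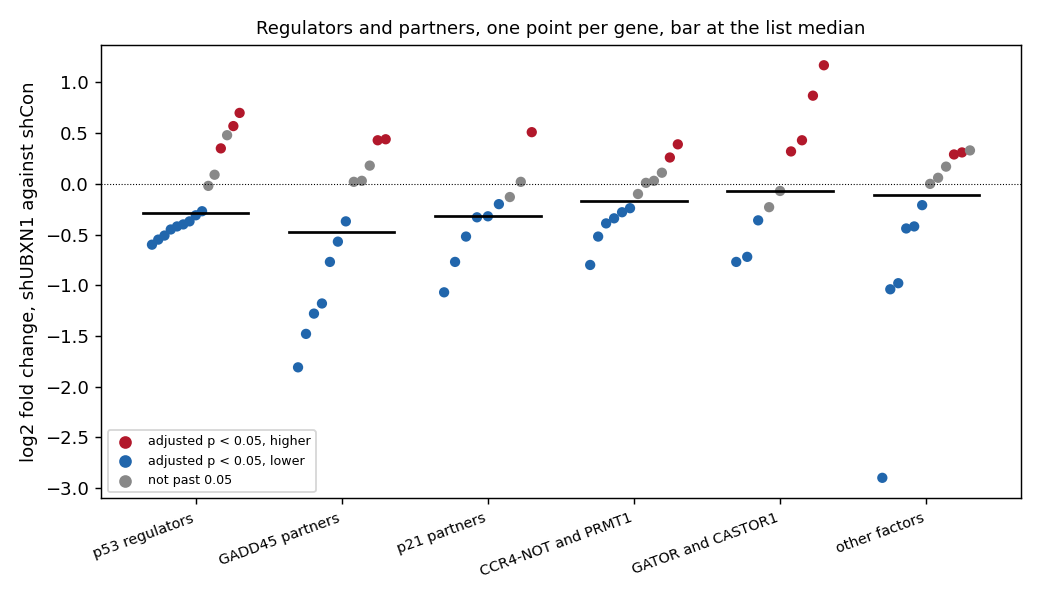
Log2 fold change (vertical axis, shUBXN1 against shCon) of each tested gene (points) in 6 lists of regulators and partners of the members, with a bar at each list's median, in which TP73 counts although it is not drawn, for its few control counts. EGR1, at -2.90, is the lowest point, and the GADD45 partners have the lowest median, at -0.47.

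Over the 4 libraries, the genes with the smallest Euclidean distance to GADD45A in log2 CPM centred on each gene's mean were LYNX1 (0.0796), SLC2A6 (0.105) and MIB2 (0.116), with log2 fold changes of 1.78, 1.88 and 1.78. For CDKN1A they were FN3KRP (0.0155), SNRPA1 (0.0163) and the readthrough gene C8orf44-SGK3 (0.0223), with 0.48, 0.46 and 0.49. With 4 libraries in 2 groups, such likeness reflects little more than a similar fold change.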

How the data were processed

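For each gene the table deposited by the authors gives a length and, per library, an expected count, fractional and without normalization. By the methods, paired-end reads were aligned to GRCh38 with Hisat2, whereas the submitters' processing notes list GRCh37, HISAT2 2.0.4 and StringTie 1.3.0. Of the 61541 gene IDs, 61369 are in GENCODE v44 on GRCh38, which gave symbols and positions. The counting tool's settings, the annotation release and the use of strand are not given in the sources used here.

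Counts were rounded, filtered with filterByExpr, scaled with TMM and tested with edgeR 4.0.16 (glmQLFit and glmQLFTest, no block) under R 4.3.3, with Benjamini-Hochberg adjustment over 16863 genes. The 4 libraries leave 2 residual degrees of freedom per gene, to which the test adds degrees of freedom borrowed from all genes tested. The libraries of a group differed by more than counting error (chi-square per degree of freedom 3.75 in shCon and 8.34 in shUBXN1). Standard errors were worked back from the log2 fold change and the test's F statistic. The 95% intervals use these with the moderated degrees of freedom, so they restate the p-value. The test was checked on simulated data, drawn with the dispersion fitted here and with few genes changed. That check does not cover data in which most genes are called.

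The members and gene lists were chosen with earlier results of these data known. Named are the members, their paralogs, the 4 largest rises and falls among other p53 targets (adjusted p under 0.05, mean log2 CPM above 1, groups apart), the 2 smallest p of each other list, and the 3 genes most like GADD45A and CDKN1A. 1 gene of the rule is not reported here. Alternatives were DESeq2 1.42.0, total count scaling, limma 3.58.1 (voom, and log2(TPM + 1) or log2(TPM + 0.1)), no filter, at least 10 counts in every library, unrounded counts, a replicate block, a GC correction, a fold change of 1.5 and leaving out each library, with canonical lengths for the ratios added after the data were seen.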

Additional observations from a re-analysis of the deposited data

How the results depend on the processing

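All 9 members kept their direction and their side of the threshold under each of the 15 alternatives run, and the log2 fold change ranged from 1.72 to 1.92 for GADD45A, 1.48 to 1.63 for GADD45B, 1.83 to 2.09 for TP53INP1, 1.66 to 1.91 for BTG2, 0.87 to 1.03 for BTG1, 0.42 to 0.56 for CDKN1A, -0.67 to -0.52 for MDM2, 0.11 to 0.43 for SESN1 and 0.01 to 0.27 for GADD45G, the last at 0.01 after GC correction. BTG3, which was not called, changed sign under total count scaling (0.00) and lay between -0.27 and 0.08 with each library left out. SESN3 was at 0.85 on log2(TPM + 1), since the pseudocount shrinks low genes. Low counts limit GADD45G, SESN1, BTG2 and SESN3.

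Genes past 2-fold with p under 0.05 before adjustment numbered 1997 higher and 1027 lower. They numbered 1028 and 524 on log2(TPM + 1), 1321 higher with at least 10 counts in every library, which tests fewer genes, and 3201 and 2435 at a fold change of 1.5. List medians moved with scaling, and so did the median of all genes, from 0.016 to 0.101 with total count scaling, 0.057 on log2(TPM + 1) and 0.071 on log2(TPM + 0.1). For the other p53 targets the median was 0.09 with total count scaling, 0.06 on log2(TPM + 1), 0.07 on log2(TPM + 0.1) and 0.04 with at least 10 counts. For the paralogs these were 0.78, 0.66, 0.74 and 0.50, with 0.53 after GC correction with or without the block. The GADD45 partners were at -0.38, -0.40 and -0.41 under the first 3 and at -0.50 after GC correction with or without the block. CCR4-NOT genes were at -0.09, -0.11 and -0.11, and at -0.12 after GC correction with or without the block. GATOR genes were at 0.01, -0.02 and -0.02, and the other factors at -0.02 with total count scaling and -0.05 on log2(TPM + 1). The number called higher was 1 for CCR4-NOT genes in DESeq2 and on both TPM scales, 2 for GATOR genes in DESeq2 and 2 for the p53 regulators on log2(TPM + 1). The shifts under total count scaling were about the size of that of all genes, and the cause of the others was not tested.

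With each library left out in turn, which leaves fewer samples, the other p53 targets had medians of 0.01 to 0.06, 8 to 16 genes higher and 6 to 11 lower. Medians ranged from 0.63 to 0.66 for the paralogs, -0.38 to -0.19 for the p53 regulators (5 to 9 lower), -0.22 to -0.13 for CCR4-NOT genes (1 to 2 higher), -0.12 to 0.01 for GATOR genes (2 to 4 higher) and -0.20 to -0.08 for the other factors (1 to 3 higher). Replicate numbers are not stated to mark pairs. Deviations of same-numbered libraries correlated with r = 0.133 across genes, and the replicate block changed no call of a member and gave 5000 genes higher and 5023 lower at an adjusted p under 0.05, against 4727 and 4751.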
